A study of Mus musculus with 8 samples.

Results

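Neutrophils and monocytes store antimicrobial proteins in granules, and the transcripts of 10 such granule and secretory genes were followed here through pools of mouse progenitors sorted for a bias to the B-cell lineage. The genes were listed by name and matched to Ensembl gene IDs through the mm9 annotation. All 10 were found among the 37991 gene IDs of the count table, all 10 passed the filter on low counts, and 13722 genes were tested in all. Mpo, Elane, Prtn3 and Ctsg encode enzymes of the primary (azurophil) granules. S100a8 and S100a9 encode the subunits of calprotectin, and Ltf, Camp, Ngp and Lcn2 encode proteins of the secondary (specific) granules.

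RNA came from bone marrow of mice aged 5 to 12 weeks, in which Kit-positive cells were enriched magnetically and B-cell biased-lymphoid progenitors were then sorted by flow cytometry. The group called H2afy_KO (knockout) held 4 pools from mice labelled H2afy-/-, H2afy being the gene of the histone variant macroH2A1, and the group called H2afy_WT (wild-type) held 4 pools from H2afy+/+ mice. Each pool combined RNA equivalent to 5000 to 15000 cells from 2 to 3 mice, and no other allele or agent is named in the labels. Each library was made from total RNA with a low-input kit and read as single reads of 50 bases. The sources used here give neither the deleted part of the allele nor the strain or sex of the mice, and do not state whether pools share mice.

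In myeloid development the granules are filled in sequence. Primary granule proteins are made by granulocyte-monocyte progenitors and promyelocytes, and specific granule proteins are made later, in myelocytes and metamyelocytes, under C/EBP-epsilon. Monocytes carry some of the same proteins, calprotectin above all. Early lymphoid progenitors can also hold low levels of myeloid transcripts, which is known as lineage priming. In bulk RNA more cells of a type and more RNA per cell cannot be told apart.

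Totals per pool were 21330088 to 29029765 gene counts, so counting error is small for the members, and the spread between pools sets their error. H2afy had 1423 to 1953 CPM (counts per 1e6 counts, scaled with TMM factors) in H2afy_KO and 1981 to 2567 CPM in H2afy_WT (log2 fold change -0.45, SE 0.15). Its count over the whole gene cannot check an allele whose deleted part is unknown. Dntt, the terminal transferase that marks lymphoid progenitors, had 3298 to 5067 CPM in H2afy_KO and 5010 to 6235 CPM in H2afy_WT. Its log2 fold change was -0.50 (SE 0.16; edgeR adjusted p = 0.489). Immunoglobulin genes took 0.402% to 39.0% of the counts of H2afy_KO pools and 0.948% to 19.5% of those of H2afy_WT pools. H2afy_WT 1 and H2afy_WT 4 lay above all other pools in the calprotectin and specific granule genes, and H2afy_WT 4 in the primary granule genes too. The genotype comparison is given with and without them. P-values measure only the spread between these pools.

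The promoters of 5 members are shown because these genes carry the contrast between early and late granule proteins described below. They are the 250 bases before the start of each gene on its own strand, 5′ to 3′, from RefSeq (GRCm38.p6), where all 10 members matched. In the order printed, the regions are chr11:87793534-87793783 (plus strand), chr10:79886062-79886311 (plus), chr3:90668821-90669070 (plus), chr9:111019042-111019291 (plus) and chr9:110419558-110419807 (plus). Capitals mark matches on either strand. The letters searched were GAGGAA for a PU.1-like motif and TTNNGNAA for a C/EBP-like motif. Those for a MYB-like motif were AACNGNC, those for a RUNX-like motif TGTGGT, and those for a TATA box TATAAA.
Mpo: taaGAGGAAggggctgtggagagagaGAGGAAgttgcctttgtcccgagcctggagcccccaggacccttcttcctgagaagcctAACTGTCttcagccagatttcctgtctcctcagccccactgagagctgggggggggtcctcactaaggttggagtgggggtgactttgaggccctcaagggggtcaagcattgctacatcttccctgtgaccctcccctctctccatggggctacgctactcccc
Elane: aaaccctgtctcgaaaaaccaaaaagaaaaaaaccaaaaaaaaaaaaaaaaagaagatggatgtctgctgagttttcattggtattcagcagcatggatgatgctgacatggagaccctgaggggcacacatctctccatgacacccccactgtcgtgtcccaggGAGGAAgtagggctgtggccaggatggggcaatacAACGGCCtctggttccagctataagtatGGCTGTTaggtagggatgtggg
S100a8: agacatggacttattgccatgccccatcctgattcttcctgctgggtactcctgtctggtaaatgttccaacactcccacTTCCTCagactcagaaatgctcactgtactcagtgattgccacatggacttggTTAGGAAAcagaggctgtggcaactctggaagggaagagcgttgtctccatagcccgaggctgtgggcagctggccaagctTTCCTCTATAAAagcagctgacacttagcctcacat
Ltf: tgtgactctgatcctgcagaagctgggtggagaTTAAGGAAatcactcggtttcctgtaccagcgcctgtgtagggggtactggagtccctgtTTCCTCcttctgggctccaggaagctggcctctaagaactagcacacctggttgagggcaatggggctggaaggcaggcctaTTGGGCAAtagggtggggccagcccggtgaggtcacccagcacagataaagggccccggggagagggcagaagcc
Ngp: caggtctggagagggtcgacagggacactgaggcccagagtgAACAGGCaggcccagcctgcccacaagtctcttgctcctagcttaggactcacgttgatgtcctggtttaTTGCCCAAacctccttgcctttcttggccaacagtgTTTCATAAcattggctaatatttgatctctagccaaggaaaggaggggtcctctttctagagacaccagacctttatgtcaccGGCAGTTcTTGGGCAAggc

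In these 5 windows no match overlapped another. The PU.1-like letters stood in the windows of 7 of the 10 members, and in 23.3% of the 32851 promoter windows in the table. The 7 were all 4 primary granule genes and also S100a8, Ltf and Lcn2. The C/EBP-like letters stood in 5 of the 10, namely S100a8, S100a9, Ltf, Ngp and Lcn2, and in 36.8% of all windows. Their Ltf copies lay 217 to 210 and 75 to 68 bases before the start. The MYB-like letters were in 4 members (Mpo, Elane, Ctsg and Ngp) and in 27.7% of windows, and the RUNX-like letters in 2 members (Ctsg and S100a9) and 14.05%. The TATA box letters were in 2 members (Ctsg and S100a8) and 12.4%. Their S100a8 copy lay 30 to 25 bases before the start on the plus strand. The Ctsg copy lay 237 to 232 bases before the start on the minus strand. Camp had no match to any of the letters searched. A match is a description of letters, and binding was not measured.

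The 10 genes together took 0.110% of all gene counts in H2afy_KO 1 (exact Clopper-Pearson 95% interval 0.109% to 0.112%), 0.188% in H2afy_KO 2, 0.227% in H2afy_KO 3 and 0.243% in H2afy_KO 4. Their share was 0.737% in H2afy_WT 1, 0.164% in H2afy_WT 2, 0.195% in H2afy_WT 3 and 1.04% in H2afy_WT 4 (95% interval 1.04% to 1.05%). The intervals cover only the counting error within a pool, and treat every read as independent. The reads carry no molecular identifiers to check this. Thus 2 of the 4 H2afy_WT pools lay above all the others, and the remaining 2 lay within the range of the H2afy_KO pools. Against the total without immunoglobulin genes the shares were 0.111%, 0.209%, 0.373% and 0.365% in knockout pools 1 to 4, and 0.764%, 0.166%, 0.243% and 1.20% in wild-type pools 1 to 4, and the same 2 pools were the highest.

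**Figure D1:**
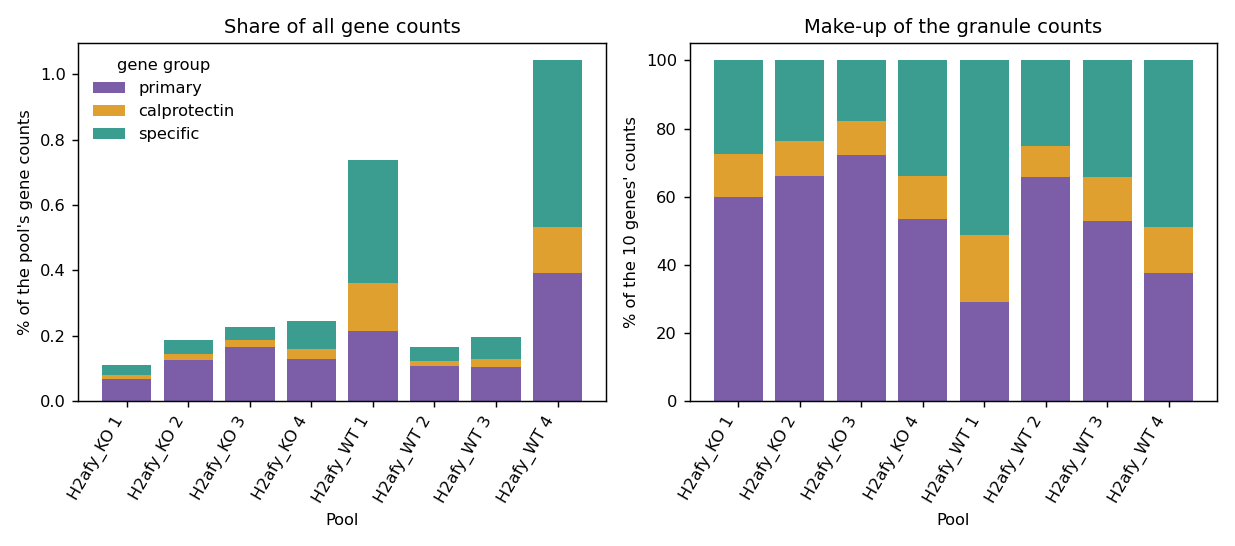
Left, percent of each pool's gene counts taken by the primary granule, calprotectin and specific granule genes (stacked bars, 1 per pool); right, the percent that each group makes of the counts of the 10 genes. H2afy_WT 1 and H2afy_WT 4 reach 0.737% and 1.04% on the left, and on the right the specific granule genes make 51.2% and 48.9% of their granule counts.

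The make-up of this signal differed between pools as well as its size. Specific granule genes made 51.2% of the granule counts in H2afy_WT 1 and 48.9% in H2afy_WT 4, but 17.9% to 34.2% in the other 6 pools. Primary granule genes made 28.97% and 37.6% in those 2 pools and 52.9% to 72.1% in the others. The ratio of specific to primary granule counts was 1.77 in H2afy_WT 1 and 1.30 in H2afy_WT 4. In the other pools this ratio ran from 0.248 in H2afy_KO 3 to 0.647 in H2afy_WT 3. By genotype it was 0.426 ± 0.166 in H2afy_KO and 1.02 ± 0.627 in H2afy_WT (SD, n = 4 each), and the groups overlapped.

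Among the primary granule genes, Mpo encodes myeloperoxidase, which makes hypochlorous acid from hydrogen peroxide. It lies on chromosome 11 at 87607083 to 87617915 (NCBIM37, plus strand, ENSMUSG00000009350). Its level was 466.1, 858.5, 1640.0 and 1215 CPM in knockout pools 1 to 4, against 1452, 727.9, 818.8 and 2857 CPM in wild-type pools 1 to 4. H2afy_WT 4 was highest, H2afy_KO 3 next and H2afy_KO 1 lowest, so the genotypes overlapped. The means were 1045 ± 501 and 1464 ± 983 CPM (SD, n = 4 per genotype), which gave a log2 fold change, knockout over wild-type, of -0.49 (SE 0.54; edgeR quasi-likelihood test, adjusted p = 0.873). The non-coding gene Gm11505 overlaps Mpo on the opposite strand, and a library that does not mark strand cannot separate their reads.

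Elane, Prtn3 and Ctsg encode the neutral serine proteases of the primary granule: neutrophil elastase, proteinase 3 and cathepsin G. Elane (chromosome 10, 79349057 to 79350961, plus strand) had 68.4, 245.5, 509.4 and 306.7 CPM in knockout pools 1 to 4, against 352.9, 161.3, 191.5 and 706.8 CPM in wild-type pools 1 to 4. Prtn3 (chromosome 10, 79337221 to 79345919, plus strand) ends 3137 bases before Elane with no annotated gene between them. It had 18.4, 28.5, 74.8 and 43.5 CPM in knockout pools 1 to 4, against 61.7, 16.2, 28.4 and 98.7 CPM in wild-type pools 1 to 4. The span of Prtn3 overlaps BC005764 on the opposite strand, with the same limit on strand. Ctsg (chromosome 14, 56718718 to 56721411, minus strand) had 8.38, 16.9, 54.4 and 25.8 CPM in knockout pools 1 to 4, against 43.5, 16.8, 28.3 and 87.6 CPM in wild-type pools 1 to 4. For each of the 3 proteases H2afy_WT 4 was again the highest pool and H2afy_KO 3 the next, and the genotypes overlapped. Their log2 fold changes were -0.32 (SE 0.70) for Elane, -0.31 (SE 0.66) for Prtn3 and -0.74 (SE 0.71) for Ctsg, with adjusted p-values of 0.947, 0.944 and 0.848 in the edgeR fit. With each pool left out in turn, Elane ran from -0.77 to 0.26, Prtn3 from -0.76 to 0.22 and Ctsg from -1.37 to -0.17, in each case lowest without H2afy_KO 3 and highest without H2afy_WT 4. Without H2afy_KO 1 they were at -0.0043, -0.07 and -0.46.

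H2afy_KO 3, second for all 4 primary granule genes, was the pool with the largest immunoglobulin share, 39.0%. Its level of Igj, the joining chain of plasma cells, was 18967 CPM, against 32.4 CPM in H2afy_KO 1, which had the lowest level of Mpo, Elane and Ctsg. H2afy_WT 4, highest for all 4, had an immunoglobulin share of 12.9%. The part of plasma cells in the primary granule levels was not tested. The ratio of Elane to Mpo counts was 0.249 ± 0.0721 in H2afy_KO and 0.236 ± 0.0114 in H2afy_WT (SD, n = 4 each), and ran from 0.147 in H2afy_KO 1 to 0.311 in H2afy_KO 3.

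**Figure D2:**
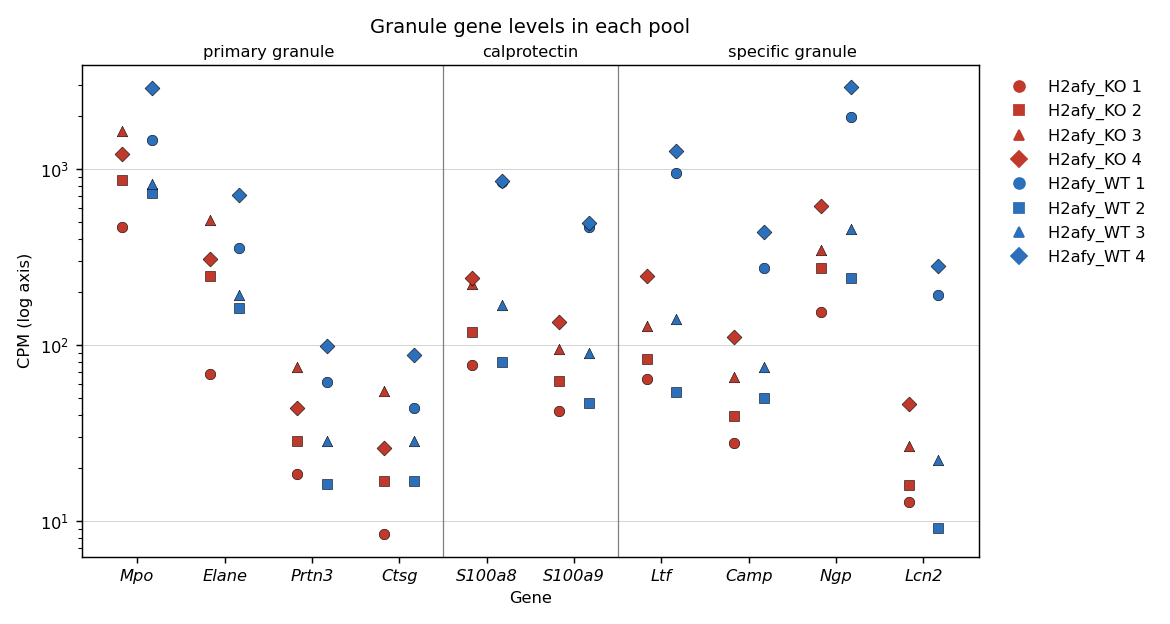
CPM of each granule gene on a log axis, 1 point per pool, with H2afy_KO in red, H2afy_WT in blue and the marker giving the replicate number. H2afy_WT 4 is the highest point for all 10 genes, and H2afy_WT 1 is the next highest for the 6 calprotectin and specific granule genes but not for the primary granule genes, where H2afy_KO 3 is.

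Calprotectin binds calcium, zinc and manganese and is abundant in the cytosol of neutrophils and monocytes. S100a8 (chromosome 3, 90472993 to 90473956, plus strand) had 76.3, 118.5, 221.0 and 238.6 CPM in knockout pools 1 to 4, against 842.7, 79.6, 169.0 and 853.1 CPM in wild-type pools 1 to 4. S100a9 lies 22597 bases further on, on the minus strand (90496554 to 90499643), with no annotated gene between. It had 42.3, 61.8, 94.2 and 134.5 CPM in knockout pools 1 to 4, against 467.1, 46.5, 90.3 and 492.8 CPM in wild-type pools 1 to 4. H2afy_WT 1 and H2afy_WT 4 were thus nearly level for both genes and above every other pool, while H2afy_WT 2 and H2afy_WT 3 lay among the H2afy_KO pools. The log2 fold changes were -1.57 (SE 0.85) for S100a8 and -1.72 (SE 0.86) for S100a9, with adjusted p-values of 0.725 and 0.704 in the edgeR fit. The ratio of S100a9 to S100a8 counts stayed within 0.426 to 0.584 over the 8 pools.

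Of the specific granule genes, Ltf encodes lactoferrin, which sequesters iron, and Lcn2 encodes lipocalin 2, which binds bacterial siderophores. Ltf (chromosome 9, 110921796 to 110945270, plus strand) had 64.1, 83.3, 127.4 and 244.9 CPM in knockout pools 1 to 4, against 950.2, 54.1, 140.4 and 1262 CPM in wild-type pools 1 to 4. Lcn2 (chromosome 2, 32240153 to 32243317, minus strand) had 12.9, 15.9, 26.6 and 46.0 CPM in knockout pools 1 to 4, against 192.3, 9.13, 22.3 and 280.9 CPM in wild-type pools 1 to 4. In these genes the H2afy_WT group held both the highest pools and the lowest one, H2afy_WT 2. Within H2afy_WT the highest pool was 23.3-fold above the lowest for Ltf and 30.8-fold for Lcn2, against 3.93-fold for Mpo. Within H2afy_KO those spreads were 3.82-fold, 3.58-fold and 3.52-fold.

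Camp and Ngp belong to the cathelicidin and cystatin-like family: Camp encodes the precursor of the antimicrobial peptide CRAMP, and Ngp encodes neutrophilic granule protein. Ngp (chromosome 9, 110322254 to 110325514, plus strand) had 153.9, 272.8, 345.5 and 613.6 CPM in knockout pools 1 to 4, against 1958, 240.2, 453.1 and 2896 CPM in wild-type pools 1 to 4. Camp (chromosome 9, 109749889 to 109751970, minus strand) had 27.5, 39.4, 65.4 and 110.5 CPM in knockout pools 1 to 4, against 272.9, 50.1, 74.7 and 436.0 CPM in wild-type pools 1 to 4. Here too H2afy_WT 1 and H2afy_WT 4 exceeded all other pools. In all 6 calprotectin and specific granule genes H2afy_KO 4 ranked next after them, the highest of its genotype. Camp, Ngp and Ltf lie on the same chromosome but are not neighbours: 13 annotated genes separate Camp from Ngp and 21 separate Ngp from Ltf.

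The specific granule genes had the most negative log2 fold changes of the 10: -2.21 (SE 1.07) for Ltf, -1.78 (SE 0.83) for Camp, -2.0 (SE 0.89) for Ngp and -2.32 (SE 1.15) for Lcn2, with adjusted p-values of 0.676 to 0.705 in the edgeR fit. Of the 10 members, 0 passed the edgeR quasi-likelihood test over all genes, and 0 had an unadjusted p under 0.05. Over all tested genes, 0% passed the adjusted threshold and 7.58% the unadjusted one. DESeq2 also called 0 of the 10 after adjustment (0.876% of all genes it tested were called), with 5 at an unadjusted p under 0.05 (9.39% of all genes it tested), and limma-voom called 0. A fit that blocked on the replicate number called 15 genes (0.109%), none of them a member. The genotypes overlapped in all 10 members, and did not overlap in 4.53% of tested genes (2.35% lower and 2.18% higher in knockout pools).

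The sign was negative in all 10 members and in 49.9% of tested genes. The median log2 fold change was -1.65 over the members and 0.00074 over all tested genes. At or below -1 were 6 of the 10, and 2.56% of tested genes. The size of this difference depended on single pools. With a single pool left out the sign turned only for Mpo, Elane and Prtn3, and the median stayed negative. Without H2afy_WT 4 the median was -1.14 and 7 of the 10 were negative, with Mpo at 0.06 (SE 0.43), Elane at 0.26 (SE 0.66) and Prtn3 at 0.22 (SE 0.62). Without H2afy_WT 1 the median was -1.26. Without H2afy_WT 2 it was -2.0025, with 6 members at an unadjusted p under 0.05 and 0 called. Without H2afy_WT 3 it was -1.93, with 2 members at an unadjusted p under 0.05 and 0 called. The share of all tested genes at that level was not counted in these fits, so the member counts cannot be set against it. Without both H2afy_WT 1 and H2afy_WT 4, a setting chosen after seeing the values, 2 of the 10 were negative and the median was 0.40. In that setting Ltf was at 0.41 (SE 0.71), Ngp at -0.01 (SE 0.58) and Lcn2 at 0.68 (SE 0.64). Without both H2afy_KO 3 and H2afy_KO 4, the pools richest in immunoglobulin transcripts and also chosen afterwards, all 10 were negative and the median was -2.35.

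**Figure D3:**
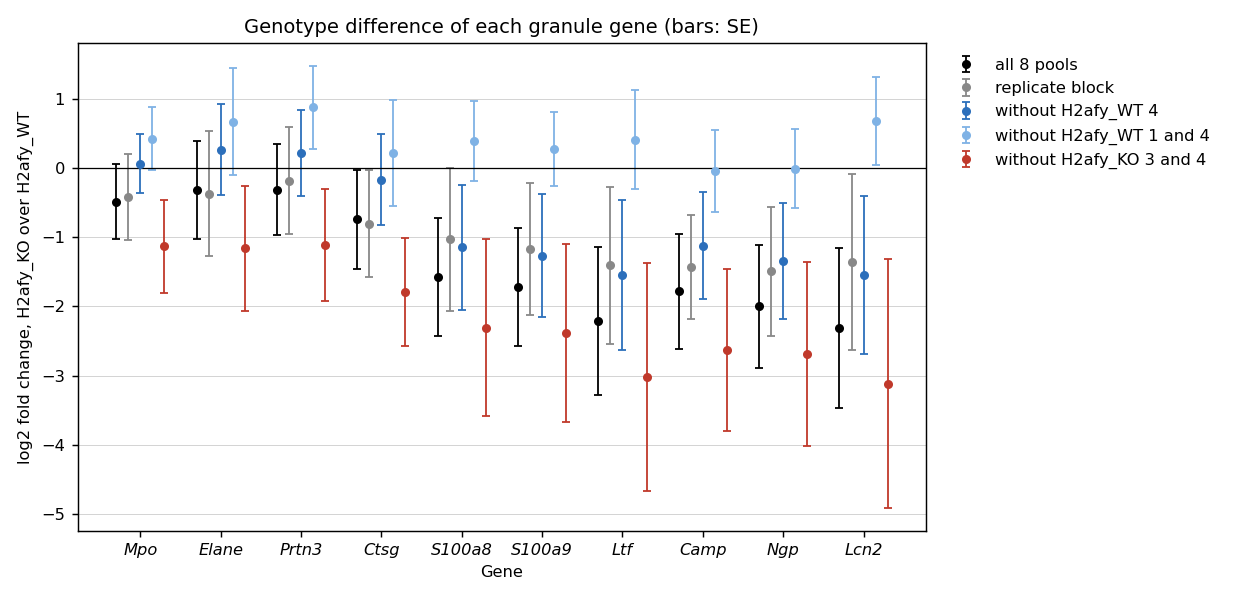
Log2 fold change of H2afy_KO over H2afy_WT for each granule gene, with bars of 1 SE, from the edgeR fit on all 8 pools, with the replicate block, and without named pools. The 10 black points (all pools) lie between -2.32 and -0.31, and the light blue points (without H2afy_WT 1 and 4) lie between -0.05 and 0.88.

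Levels can be set against each other between genes only per length of transcript. As CPM per kilobase of annotated exon (RPKM), S100a8 was highest over the 8 pools at 829 ± 837 (SD, n = 8), followed by Ngp at 712 ± 826, Mpo at 366 ± 221, Elane at 345 ± 224 and S100a9 at 342 ± 361 RPKM. Camp was at 224 ± 241, Ltf at 133 ± 171, Ctsg at 35.1 ± 25.9, Lcn2 at 32.9 ± 44.6 and Prtn3 at 26.7 ± 17.1 RPKM. The order was not the same in each genotype: over the knockout pools Elane (307 RPKM) and Mpo (305 RPKM) averaged above Ngp (285 RPKM), and over the wild-type pools Ngp averaged 1139.6 RPKM, against 428 RPKM for Mpo and 384 RPKM for Elane. Neighbours in the order over all 8 pools differed by less than the larger of their SDs. S100a8 was the highest member in 6 of the 8 pools, Mpo and Ngp in 1 each, and the lowest was Lcn2 in 6 pools and Prtn3 in 2.

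Genes whose level over the 8 pools ran most like the mean log2 CPM of the members were sought among all other tested genes. For the 4 primary granule genes the 5 most alike were Ms4a3 (Pearson r = 0.996), a gene of granulocyte-monocyte progenitors, then Cd63 (r = 0.987), a membrane protein of the azurophil granule, Hk3 (r = 0.977), a hexokinase of myeloid cells, Gm11505 (r = 0.976), which overlaps Mpo, and Clec4a2 (r = 0.969). For the 6 calprotectin and specific granule genes they were Cd177 (r = 0.994), a surface and granule protein of neutrophils, Itgb2l (r = 0.977), Chi3l3 (r = 0.975), Lyz2 (r = 0.974), the lysozyme of myeloid cells, and Pglyrp1 (r = 0.970), a peptidoglycan-binding granule protein. These coefficients describe 8 pools, of which 2 stand apart for the later genes, and share libraries and scaling. Lyz2 and Chi3l3 have near-identical copies that can share reads. Cd177 had 9.65 to 39.8 CPM in H2afy_KO, 12.2 and 34.1 CPM in H2afy_WT 2 and 3, and 159.7 and 224.7 CPM in H2afy_WT 1 and 4.

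A wider list of specific and gelatinase granule genes showed the same pools on top. Of its 18 tested genes, 14 had H2afy_WT 1 and H2afy_WT 4 as the 2 highest pools, as had 6 of the 10 members (0 of the 4 primary granule genes), against 5.62% of all tested genes. This order of pools was noticed in the values and is a description. The list had 14 negative log2 fold changes of 18 and a median of -1.30, which was 0.34 without H2afy_WT 1 and 4. The 4 positive ones were Cybb (0.52, SE 0.86), Cyba (0.66, SE 0.40), Itgb2 (0.18, SE 0.24) and Adam8 (0.53, SE 0.29). Cybb and Cyba were highest in H2afy_KO 3 (378 and 292 CPM) and next in H2afy_KO 4 (296 and 249 CPM). None of its genes passed the edgeR test (0 called). In that test 1 gene had an unadjusted p under 0.05 (7.58% of all tested genes had), and DESeq2 called it (0.876% of all genes it tested were called). That gene was Anxa1, which encodes the anti-inflammatory protein annexin A1, at 129.6 ± 26.3 CPM in knockout and 325 ± 151 CPM in wild-type pools (SD, n = 4 per genotype). Its log2 fold change was -1.33 (SE 0.33; edgeR adjusted p = 0.426, DESeq2 adjusted p = 0.00359). Its genotypes did not overlap, and without H2afy_WT 1 and 4 it was at -0.60 (SE 0.20). The collagenase gene Mmp8 had 15.8 and 16.2 CPM in H2afy_WT 1 and 4 and 0.0755 to 4.73 CPM elsewhere. The gelatinase gene Mmp9 had 7.09 and 6.39 CPM in those pools and 0 counts in H2afy_KO 1 and H2afy_WT 2, where a count of 0 allows up to 0.0952 and 0.113 CPM.

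Other primary granule genes did not share 1 pattern. Of 8 tested, 6 had a negative log2 fold change, 0 were called and the median was -0.08. Ms4a3 ran with Mpo, from 12.6 CPM in H2afy_KO 1 to 109.2 CPM in H2afy_WT 4. Ctsc, whose product cathepsin C activates the granule proteases, stayed within 103.7 to 129.2 CPM, and Prss57, a serine protease gene, within 42.3 to 75.6 CPM. The 2 genes of the list with the smallest p were Lyz2 (log2 fold change -1.25, SE 0.55; 0.11, SE 0.19, without H2afy_WT 1 and 4) and Gusb (0.26, SE 0.15), a lysosomal glucuronidase gene.

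**Figure D4:**
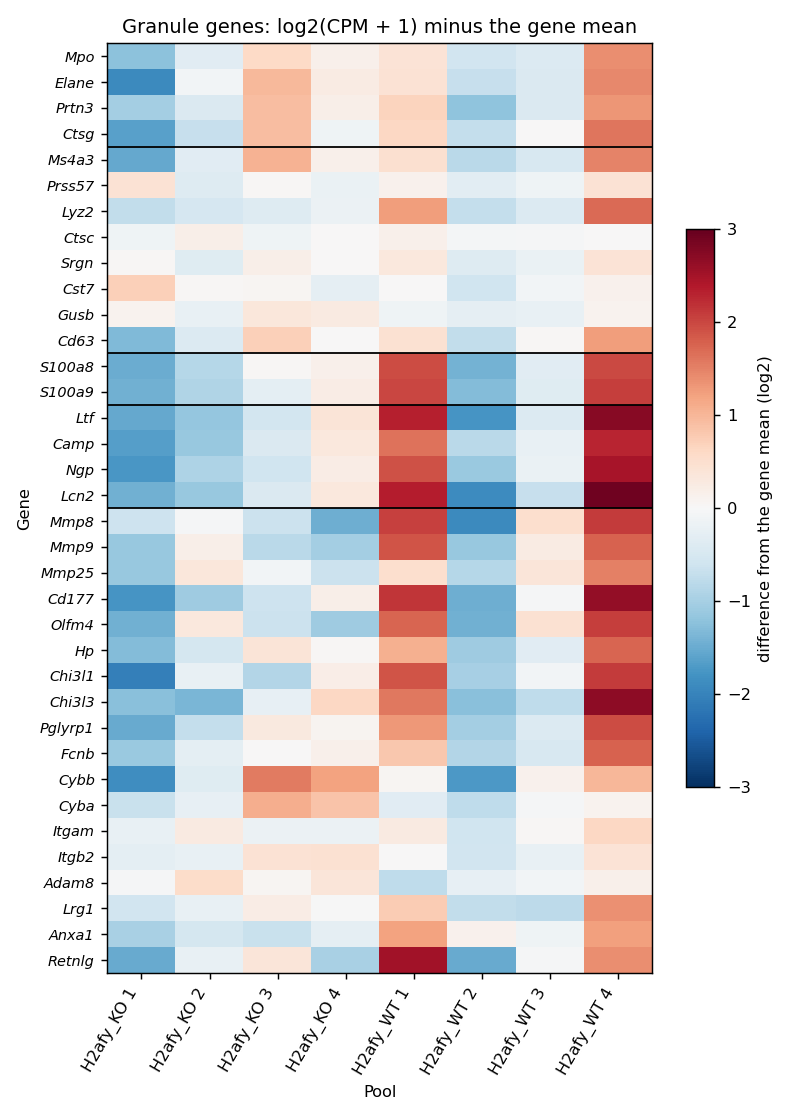
Difference of log2(CPM + 1) from the gene's mean over the 8 pools for the tested granule genes (red above, blue below, colour limits of 3), with black lines between primary granule members, other primary granule genes, calprotectin, specific granule members and other specific and gelatinase granule genes. The columns of H2afy_WT 1 and H2afy_WT 4 are red through most of the lower 3 blocks, and that of H2afy_KO 3 is red in the primary granule members.

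Protease inhibitors were described from a list of 9 genes. Of 8 tested, 5 had a positive log2 fold change and 0 were called (1 at an unadjusted p under 0.05, against 7.58% of all tested genes). The median was 0.37, but -0.08 without H2afy_KO 3 and 4. Cst3, the cysteine protease inhibitor cystatin C, averaged 282 ± 64.0 CPM in knockout and 184 ± 28.2 CPM in wild-type pools (SD, n = 4 per genotype), with a difference of 0.62 (log2, SE 0.18; edgeR adjusted p = 0.473), and Serpina3g was at 1.18 (SE 0.58). Slpi, an inhibitor of neutrophil elastase, had 1398 CPM in H2afy_KO 3 and 11.02 to 284.6 CPM in the other pools. In the S100 family outside calprotectin, 6 of 11 genes were tested, 0 were called, 5 were positive and the median was 0.13. S100a1 was at 0.26 (SE 0.20) and S100a4 at 0.49 (SE 0.44).

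Transcription factors and receptors of the myeloid lineage were described from separate lists. Of 8 tested factors, 4 were positive, 0 were called by edgeR and the median was 0.13. In that test 2 of the 8 had an unadjusted p under 0.05, as had 7.58% of all tested genes. Irf8, a factor of monocytes and dendritic cells, averaged 324 ± 38.9 CPM in knockout and 160.04 ± 26.0 CPM in wild-type pools (SD, n = 4 per genotype). Its difference was 1.02 (log2, SE 0.15; edgeR adjusted p = 0.0722, 0.0420 with the replicate block; DESeq2 adjusted p = 6.62e-06), opposite in sign to the granule genes. Cebpa, a factor of granulocyte commitment, was at 1.005 (SE 0.44), from 0.868 to 3.96 CPM. Cebpe, the factor of specific granule formation, had 2.13 and 2.40 CPM in H2afy_WT 1 and 4, and 0.159 to 1.69 CPM elsewhere.

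Of 10 tested receptors, 7 were negative and 0 were called by edgeR (1 at an unadjusted p under 0.05, against 7.58% of all tested genes). The median was -0.40 (0.43 without H2afy_WT 1 and 4), close to the -0.40 and 0.55 of the primary granule members. In 4 of the 10, namely Cxcr2, Fpr1, Fpr2 and Fcgr3, H2afy_WT 1 and 4 were the 2 highest pools. Csf3r, the receptor of the granulocyte growth factor G-CSF, had 20.4, 21.8, 18.7 and 14.2 CPM in knockout pools 1 to 4, against 32.3, 27.0, 32.6 and 40.1 CPM in wild-type pools 1 to 4, and these genotypes did not overlap. Its log2 fold change was -0.81 (SE 0.18; edgeR adjusted p = 0.363, DESeq2 adjusted p = 0.0119), and -0.67 (SE 0.22) without H2afy_WT 1 and 4. Csf1r, the receptor of the macrophage growth factor, was at 0.65 (SE 0.30). Cxcr2, a chemokine receptor of mature neutrophils, had 6.15 and 6.28 CPM in H2afy_WT 1 and 4 and 0.886 to 2.67 CPM elsewhere.

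Most monocyte markers leaned the other way. Of 12 tested genes, 10 were positive, 0 were called by edgeR, and the median was 0.61 (1.06 without H2afy_WT 1 and 4). In the edgeR test 4 of the 12 had an unadjusted p under 0.05, as had 7.58% of all tested genes. Negative were 2 of the 12, and 49.9% of all tested genes. The 2 were F13a1 (-0.62, SE 0.96) and Vcan (-0.13, SE 0.996), both named after their values were seen. The highest pools for F13a1 were H2afy_WT 4 (98.6 CPM) and H2afy_WT 1 (57.8 CPM). Cd68, a lysosomal protein of monocytes and macrophages, was at 1.45 (SE 0.21; edgeR adjusted p = 0.0579, and 0.00936 with the replicate block; DESeq2 adjusted p = 2.65e-07), and Mpeg1, which encodes perforin-2, was at 0.57 (SE 0.16). Ly6c2, a surface marker of monocytes that plasma cells also express, had 982.6 CPM in H2afy_KO 3 and 14.1 to 409.7 CPM in the other pools. In the eosinophil, basophil and mast cell granule list 8 of 11 genes were tested, 5 were positive, 0 were called and the median was 0.53. That median was -0.03 with the replicate block, -1.28 without H2afy_KO 3 and 4, and 1.76 without H2afy_WT 1 and 4. Prg2, the major basic protein gene of eosinophils, had 2.16 to 420.8 CPM in H2afy_KO and 4.76 to 160.4 CPM in H2afy_WT, with H2afy_KO 3 highest, and Cpa3 was at -0.78 (SE 0.65).

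Markers of other cell types moved with the granule genes in part. The erythroid list summed to 150.1 CPM in H2afy_WT 1 and 279.7 CPM in H2afy_WT 4, against 8.95 to 89.1 CPM in H2afy_KO and 26.0 and 67.3 CPM in H2afy_WT 2 and 3. In 5 of its 6 tested genes those 2 pools were highest. Among them were Hba-a1, an alpha globin gene (5.23 and 6.88 CPM, 0.127 to 2.02 CPM elsewhere), and Car1, carbonic anhydrase 1 (115.5 and 236.5 CPM, 7.33 to 76.4 CPM elsewhere). The list's median log2 fold change was -1.22, with 0 genes called, and 0.98 without the 2 pools. All 8 genes of the list had counts, but Klf1 and Hba-a2 were at 0 in H2afy_KO 1 and Epor in H2afy_WT 2. The part of erythroid cells in the granule levels was not tested.

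The plasma cell list summed to 175.8 to 20567 CPM in H2afy_KO and 592.7 to 9113 CPM in H2afy_WT, highest in H2afy_KO 3 and 4 and not in the 2 pools rich in specific granule genes. All 6 of its genes were positive and 0 were called (1 at an unadjusted p under 0.05, against 7.58% of all tested genes). The median was 1.25, but -0.80 without H2afy_KO 3 and 4. Sdc1, syndecan 1, was at 1.24 (SE 0.43) and Xbp1 at 1.60 (SE 0.80). The T and natural killer cell list summed to 205.4 to 381.6 CPM in H2afy_KO and 297.2 to 366.8 CPM in H2afy_WT, mostly from Nkg7 (log2 fold change -0.39, SE 0.21), and had a median of -0.02 (0.03 with the replicate block, 0.36 without H2afy_WT 1 and 4) with 0 called. Cd8a was at 1.78 (SE 0.92). The list of B-lineage and progenitor genes summed to 7158 to 8865 CPM in H2afy_KO and 9984 to 12639 CPM in H2afy_WT. Of its 15 tested genes 13 were negative and 0 were called by edgeR. In that test an unadjusted p under 0.05 was reached by 11 of the 15, and by 7.58% of all tested genes. DESeq2 called 3 lower (Blnk, Rag1 and Ebf1, the last named after its value was seen), and 0.876% of all genes it tested in either direction. In 9 of the 15 the knockout pools lay below all wild-type pools, as in 2.35% of tested genes. The list's median was -0.78 (-0.76 without H2afy_WT 1 and 4). Blnk, an adaptor of B-cell receptor signalling, was at -0.78 (SE 0.20; edgeR adjusted p = 0.426, DESeq2 adjusted p = 0.0397) and Rag1 at -1.65 (SE 0.47), the latter with an edgeR adjusted p of 0.475 (0.0467 with the replicate block; DESeq2 adjusted p = 0.00353).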

How the data were processed

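The authors deposited 1 table of raw counts for the 8 pools, with a row for each Ensembl gene ID. The submitters' processing notes name HISAT2 2.0.6 and mm9. The program, strand setting and annotation used to count reads were not given in the sources used here. Gene IDs were named with GENCODE M1 (NCBIM37, the assembly of mm9), which named 37205 of 37991. Of the 137 list symbols, 135 matched by symbol and 2 by a synonym.

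The main test was edgeR (4.0.16; quasi-likelihood, TMM factors, filterByExpr with a minimum count of 10, robust), on H2afy_KO against H2afy_WT, with Benjamini-Hochberg adjustment over 13722 genes and a threshold of 0.05. Log2 CPM used a prior count of 2, and RPKM the union of annotated exons. Depth was 21330088 to 29029765 counts per pool. Every pair of pools differed beyond sampling noise (chi-square per degree of freedom at least 101). Alternatives were DESeq2 (1.42.0), limma-voom (3.58.1) with sample weights, RLE and upper-quartile factors, other filters, no immunoglobulin genes, a replicate block, and each pool left out. R was 4.3.3.

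Same-numbered pools deviated together from their group means across genes (r = 0.19, 0.19, 0.36 and 0.41 for numbers 1 to 4). The labels do not say what a replicate number marks. The main test therefore did not pair the pools, and the replicate block was an alternative only. These correlations are at most a hint of pairing. The best match of H2afy_KO 1 was H2afy_WT 2 (r = 0.52) and that of H2afy_KO 3 was H2afy_WT 4 (r = 0.45).

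The members and lists were chosen with earlier results of these data known. Named genes are the 10 members, the 2 genes of smallest p in each of 12 lists, the 5 most alike to each member group, and H2afy. A further 14 were added once values were known, and some other list genes are named to show which genes a count covers.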

Additional observations from a re-analysis of the deposited data

Results flagged for a closer look

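A pool was read as standing apart from the other 3 of its genotype where its gap to the nearest made up more than 0.829 of the group's range. This rule finds 1 pool far from the others and cannot find 2 that lie apart together, as H2afy_WT 1 and 4 did in the calprotectin and specific granule genes. By it none of the 10 members and none of the ratios between them stood out. Of the 126 groups examined, 4 stood out, and chance gives about 1 in 20. They were Csf1r at 9.17 CPM in H2afy_WT 2 (lowest of its group), Cpa3 at 3.52 CPM in H2afy_KO 1 (lowest), Itgb2l at 10.5 CPM in H2afy_KO 4 (highest) and Mmp9 at 1.48 CPM in H2afy_KO 2 (highest).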

How the results depend on the processing

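Under DESeq2, limma-voom, RLE and upper-quartile factors, both other filters, the replicate block and no immunoglobulin genes, all 10 members kept a negative log2 fold change, with medians of -1.65 to -1.10, and 0 were called. With each pool left out 0 members were called either. Without H2afy_WT 4 the direction turned for Mpo (0.06), Elane (0.26) and Prtn3 (0.22). Without both H2afy_WT 1 and 4, chosen after seeing the data, it turned for Mpo (0.43), Elane (0.67), Prtn3 (0.88), Ctsg (0.21), S100a8 (0.39), S100a9 (0.27), Ltf (0.41) and Lcn2 (0.68). Without both H2afy_KO 3 and 4, also chosen after seeing the data, the values were -1.13 (Mpo), -1.16 (Elane), -1.12 (Prtn3), -1.80 (Ctsg), -2.31 (S100a8), -2.39 (S100a9), -3.02 (Ltf), -2.63 (Camp), -2.69 (Ngp) and -3.12 (Lcn2). The cause was not tested. Over all genes the main count of 0 higher and 0 lower became 48 and 78 with DESeq2, 4 and 11 with the replicate block, 7 and 9 with no filter, 1 and 4 with upper-quartile factors, 0 and 2 with a minimum of 5 CPM, and 0 and 3 without immunoglobulin genes. With each pool left out it was 0 higher and 0 to 1 lower. The block changed no member's call. The members' counts were well above the floor of 3 in every pool, so the spread between pools, not depth, limits these comparisons.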
